A study of Mus musculus with 8 samples.

Results

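The miR-200 family was followed through 8 small RNA libraries of mouse cells. It was taken as 7 mature miRNAs, chosen by name: mmu-miR-200a-3p, mmu-miR-200a-5p, mmu-miR-200b-3p, mmu-miR-200b-5p, mmu-miR-200c-3p, mmu-miR-141-3p and mmu-miR-429-3p. All 7 had a row among the 1978 miRNAs of the C2C12 hairpin tables and among the 696 miRNAs of the P19 table, and 1 of the 7, mmu-miR-200c-3p, had a row among the 605 miRNAs of the ATF4 table. The C2C12 line consists of skeletal muscle myoblasts of the mouse, and the P19 line of mouse embryonal carcinoma cells. In 4 libraries the C2C12 cells expressed a lentiviral hairpin, either a control (shNC) or one directed at Perk (shPerk), a kinase of the endoplasmic reticulum stress response, and were taken at day 0 or at day 3 of differentiation. Another C2C12 pair carried a vector as control or the ATF4 coding sequence driven by the EF1α promoter, and the P19 pair carried shNC or shPerk. The hairpin lines were stable, puromycin-selected cultures, for which the methods describe C2C12 cells and not P19 cells. The labels of the P19 pair and the ATF4 pair state neither a day nor whether differentiation was induced, and the study describes the ATF4 pair as kept in growth medium. Perk mRNA is not measured by small RNA libraries, so the knockdown was not checked here.

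There was 1 library per group, so no difference below has a replicate check. Intervals cover counting error between the libraries compared, not the spread between cultures. The C2C12 hairpin libraries held 8800977 to 11993448 miRNA reads. The P19 and ATF4 tables give RPM (reads-per-million of the miRNA reads) and list values under 1 RPM at 0. By the spacing of the RPM values, 1 RPM corresponded to about 7.92 reads in P19 shNC and 4.46 reads in P19 shPerk. Read numbers implied by that spacing are used below to give 95% counting intervals, shares of family reads and ratios between strands. The cell labels were checked against marker miRNAs. The 4 muscle markers summed to between 2467 and 88480 (CPM or RPM) in the 6 C2C12 libraries and to 34.5 and 96.9 RPM in the P19 pair, where 3 of the 4 had a row. The 6 pluripotency markers took 16.8% of the P19 shNC reads and 39.4% of the P19 shPerk reads, and at most 0.265 CPM (counts-per-million) in a C2C12 hairpin library.

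The miR-200 family is known for holding epithelial cells in their state. Its members bind the mRNAs of Zeb1 and Zeb2, repressors of E-cadherin, and their loss accompanies the epithelial-mesenchymal transition. The family is also expressed in pluripotent cells, while mesenchymal cells such as myoblasts are known to hold little of it.

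A miRNA selects its targets mainly by its seed, bases 2 to 8 of the mature strand. The mature sequences of all 7 members, taken from RefSeq on GRCm38.p6, are shown 5′ to 3′ with the seed in capitals, because the seeds split the family in a different way from its gene clusters.
mmu-miR-200b-3p: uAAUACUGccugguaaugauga
mmu-miR-200c-3p: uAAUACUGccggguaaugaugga
mmu-miR-429-3p: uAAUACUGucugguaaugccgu
mmu-miR-200a-3p: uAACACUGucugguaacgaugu
mmu-miR-141-3p: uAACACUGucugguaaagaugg
mmu-miR-200a-5p: cAUCUUACcggacagugcugga
mmu-miR-200b-5p: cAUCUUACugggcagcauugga

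The seed AAUACUG was held by 3 of the 1738 mature miRNA entries of RefSeq, mmu-miR-200b-3p, mmu-miR-200c-3p and mmu-miR-429-3p. AACACUG was held by 2, mmu-miR-200a-3p and mmu-miR-141-3p, and AUCUUAC by 2, the 5p strands mmu-miR-200a-5p and mmu-miR-200b-5p. Counted from the 5′ end, mmu-miR-200b-3p and mmu-miR-200c-3p differed at 2 of 22 compared bases, U11G and A22G. mmu-miR-200a-3p and mmu-miR-141-3p also differed at 2 of 22, C17A and U22G. How the reads that match more than 1 of them were assigned is not given in the sources used here.

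The 5 hairpins lie in a pair of gene clusters. On chromosome 4, minus strand of GRCm38, Mir200b (chr4:156055681-156055750), Mir200a (chr4:156054896-156054985) and Mir429 (chr4:156053905-156053987) follow each other with 695 and 908 bases between them. All 3 lie in introns of the protein-coding gene Ttll10 on the same strand. They also overlap the noncoding transcript Gm13648, in its introns for Mir200b and Mir200a and within an exon for Mir429. On chromosome 6, minus strand, Mir200c (chr6:124718322-124718390) and Mir141 (chr6:124717914-124717985) are 336 bases apart. Both lie in introns of Gm15884, annotated as an antisense RNA, and Mir141 overlaps an exon of Gm29008 in part. Each cluster thus encodes both 3p seeds.

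In P19 cells the family was higher in the shPerk library, and the sum of the chromosome 4 strands differed by more than that of the chromosome 6 strands. The 7 members summed to 331.6 RPM in shNC and 1399.85 RPM in shPerk, or 0.0332% and 0.140% of miRNA reads. With TMM factors, which scale the pair so that most miRNAs stay level, the log2 fold change of the sum was 2.68 (95% counting interval 2.61 to 2.74), a 6.4-fold difference. In this fold and in those below, a value listed at 0 was taken as 1 RPM. Scaled to the miRNA total, as the RPM values stand, the log2 fold change was 2.07 (2.01 to 2.14), a 4.21-fold difference. The scalings differed by 0.605 on the log2 scale. The median of all 696 miRNAs was −0.04 with TMM factors and −0.65 with the total. Beside this shift, the pluripotency markers stood at 16.8% of the reads in shNC and 39.4% in shPerk, and the 2 neuronal markers at 3556 and 1459 RPM. The pluripotency markers did not all rise. mmu-miR-302a-3p, mmu-miR-302b-3p and mmu-miR-302d-3p were higher in shPerk, and mmu-miR-294-3p stood at 8488 RPM in shNC and 9272 RPM in shPerk. By RPM mmu-miR-295-3p stood lower in shPerk, at 20160 and 18752 RPM, and so did mmu-miR-290a-5p, at 2860 and 742 RPM. With TMM factors the log2 fold change of mmu-miR-295-3p was 0.50 and that of mmu-miR-290a-5p was −1.34. Of these markers mmu-miR-290a-5p alone was therefore lower in shPerk with TMM factors. The part of these changes in the family's difference was not tested.

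With TMM factors 7 of 7 members lay above a log2 fold change of 1, against 17.7% of all miRNAs (123 of 696). With total scaling 6 of 7 did, against 6.61% of all miRNAs (46 of 696). Both counts, and the medians that follow, include mmu-miR-141-3p, listed at 0 in shNC and taken there as 1 RPM. It stood above the listing limit in shPerk alone, where it was higher. The members' median log2 fold change was 2.71 with TMM factors and 2.10 with the total. The members share hairpins, clusters and seeds, so they are not independent observations of the pair.

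**Figure D1:**
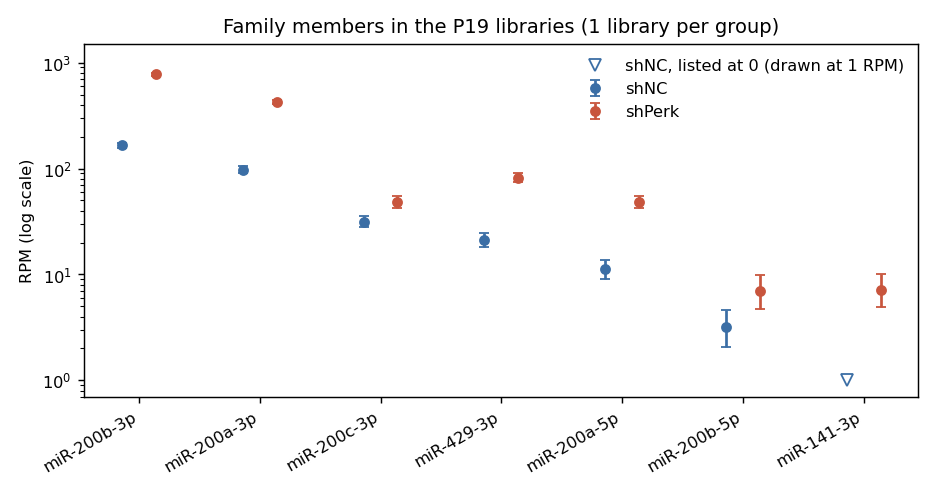
Level of each of the 7 family members in the P19 shNC and P19 shPerk libraries, in RPM on a log scale, with 95% counting intervals from the implied reads. The points of shPerk lie above those of shNC for every member, and mmu-miR-141-3p, listed at 0 in shNC, is drawn there at 1 RPM.

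mmu-miR-200b-3p was the most abundant member in both P19 libraries. It stood at 166.37 RPM in shNC (about 1317 reads) and 780.36 RPM in shPerk (about 3478 reads), a log2 fold change of 2.83 (2.74 to 2.93) with TMM factors. Its rank by level was 232 of 696 in shNC and 101 in shPerk. Its own hairpin's 5p strand, mmu-miR-200b-5p, was far lower, at 3.16 RPM in shNC and 6.96 RPM in shPerk. The log2 fold change of mmu-miR-200b-5p was 1.74, and its counting interval, 0.94 to 2.57 on about 25 and 31 reads, included values under the limit of 1.

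mmu-miR-200a-3p, the main carrier of the AACACUG seed, stood at 97.9 RPM in shNC and 426.53 RPM in shPerk. Its log2 fold change was 2.73 (2.61 to 2.85). The 5p strand mmu-miR-200a-5p stood at 11.24 RPM and 48.24 RPM, a log2 fold change of 2.71 (2.34 to 3.08). Both strands of the Mir200a hairpin therefore differed by about the same factor. The ratio of 3p to 5p reads was 8.71 in shNC and 8.84 in shPerk, and the ratio of these ratios was 1.02 (0.773 to 1.33). For Mir200b the 3p to 5p ratio was 52.7 in shNC and 112 in shPerk, with a ratio of ratios of 2.13 (1.20 to 3.74), so here the 3p strand differed by more than the 5p strand beyond counting error. That value rests on the 25 and 31 implied reads of mmu-miR-200b-5p.

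mmu-miR-429-3p, the last miRNA of the chromosome 4 cluster, stood at 21.35 RPM in shNC and 82.12 RPM in shPerk, a log2 fold change of 2.55 (2.28 to 2.82). Its interval overlapped those of mmu-miR-200b-3p, mmu-miR-200a-3p and mmu-miR-200a-5p. These 4 strands ranked 6, 7, 8 and 12 of 696 by log2 fold change, and mmu-miR-200b-5p ranked 38.

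The chromosome 6 members did not move alike. mmu-miR-200c-3p, which has the seed of mmu-miR-200b-3p, stood at 31.58 RPM in shNC and 48.46 RPM in shPerk. Its log2 fold change was 1.22 (0.95 to 1.49) with TMM factors and 0.62 with total scaling, under the limit, and it ranked 92 of 696. mmu-miR-141-3p was listed at 0 in shNC, so under 1 RPM, and at 7.18 RPM (about 32 reads) in shPerk. Its counting interval in shPerk was 4.91 to 10.1 RPM. No fold is given against the listed 0, but with that value taken as 1 RPM mmu-miR-141-3p ranked 2 of 696, above every chromosome 4 member. In shPerk its reads were 1.68% (1.15 to 2.38%) of those of the near-identical mmu-miR-200a-3p. In shNC a level at the listing limit would be 1.02%.

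Among the P19 levels, neighbours in order were apart beyond their counting intervals in shNC, where mmu-miR-200b-3p was followed by mmu-miR-200a-3p, mmu-miR-200c-3p, mmu-miR-429-3p, mmu-miR-200a-5p and mmu-miR-200b-5p. In shPerk mmu-miR-429-3p stood above mmu-miR-200c-3p. mmu-miR-200c-3p and mmu-miR-200a-5p had overlapping intervals there, and so did mmu-miR-141-3p and mmu-miR-200b-5p.

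**Figure D2:**
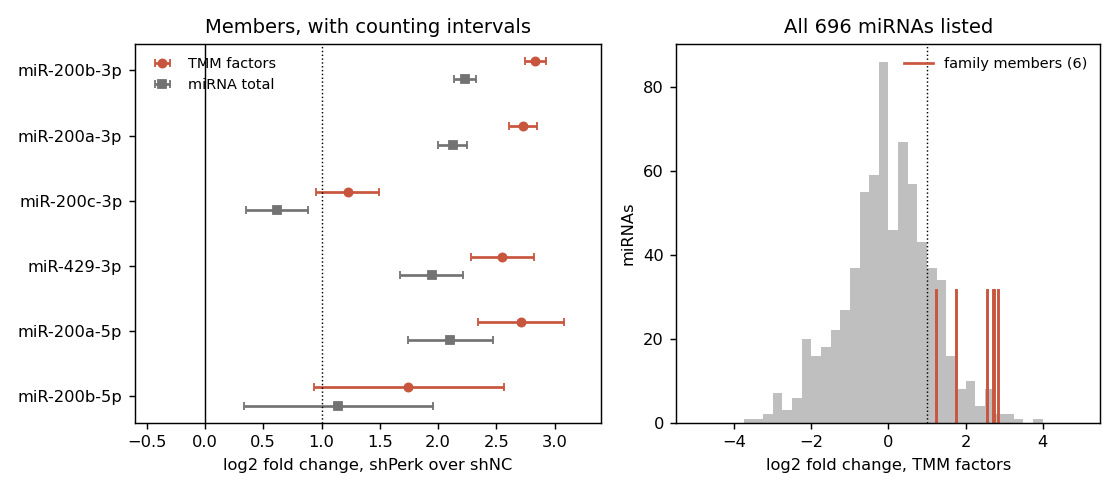
Left, log2 fold change of shPerk over shNC in P19 cells for the 6 members above 0 in both libraries, with TMM factors (circles) and miRNA-total scaling (squares) and 95% counting intervals. Right, the log2 fold changes of all 696 miRNAs in bins, values at 0 taken as 1 RPM, with the 6 members as lines. The dotted line is the limit of 1. The chromosome 4 3p strands sit at 2.55 to 2.83 and mmu-miR-200c-3p at 1.22.

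Summed by cluster, the chromosome 4 strands stood at 300.02 RPM in shNC and 1344.21 RPM in shPerk, a log2 fold change of 2.77 (2.70 to 2.84). The chromosome 6 strands stood at 31.58 RPM and 55.64 RPM, a log2 fold change of 1.38 (1.12 to 1.63). The difference between the clusters, in which the scaling cancels, was 1.39 on the log2 scale (1.13 to 1.66), a 2.62-fold larger change on chromosome 4. This was larger than counting error but has no replicate check. It rested on mmu-miR-200c-3p for the chromosome 6 side. Taken as the difference between the median members of the clusters, where mmu-miR-141-3p weighs as much as mmu-miR-200c-3p, it was at most 0.37. That value takes the listed 0 of mmu-miR-141-3p in shNC as 1 RPM, the highest level it allows. A lower level would make it smaller and could change its sign. The chromosome 6 share of family reads was 9.52% (8.43 to 10.7%) in shNC and 3.98% (3.50 to 4.49%) in shPerk.

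Summed by seed, the family kept nearly the same makeup. The AAUACUG strands stood at 219.3 RPM in shNC and 910.94 RPM in shPerk, which was 66.1% (64.3 to 67.9%) and 65.1% (63.9 to 66.3%) of family reads. The AACACUG strands stood at 97.9 RPM and 433.71 RPM, or 29.5% (27.8 to 31.3%) and 31.0% (29.8 to 32.1%). The intervals overlapped for both seeds. mmu-miR-200b-3p alone held 50.2% of all family reads in shNC and 55.7% in shPerk.

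Related miRNAs were described from lists of epithelial, pluripotency and mesenchymal miRNAs, compared as counts and medians only. Of the 8 epithelial miRNAs, 7 lay above the limit in P19 cells with TMM factors and 4 with total scaling, with medians of 1.46 and 0.85. The 2 most abundant were mmu-miR-182-5p, at 8213.68 RPM in shNC and 16854.11 RPM in shPerk, and mmu-miR-183-5p, at 4721.54 and 7509.26 RPM, which come from 1 cluster known in sensory epithelia. These were not restricted to the P19 cells, since mmu-miR-182-5p had 22564 to 101488 reads in the C2C12 hairpin libraries.

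Of the 13 pluripotency miRNAs, 7 lay above the limit and 1 below it with TMM factors, and 5 and 2 with total scaling, with medians of 1.13 and 0.53. mmu-miR-302b-3p stood at 76521.98 RPM in shNC and 180818 RPM in shPerk, and mmu-miR-302d-3p at 42087.32 and 129216.84 RPM. Both belong to the miR-302 cluster of pluripotent cells, and they make up most of the marker reads given above. Of the 11 mesenchymal miRNAs, 4 lay above the limit with TMM factors and 2 with total scaling, with medians of 0.77 and 0.16. mmu-miR-21a-5p stood at 5300.87 and 5024.12 RPM, and mmu-miR-10b-5p, encoded in a Hox cluster, at 1617.47 and 3340.44 RPM. The family's median of 2.71 was higher than the medians of the 3 lists. Whether it differed from them beyond the spread of such lists was not tested.

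**Figure D3:**
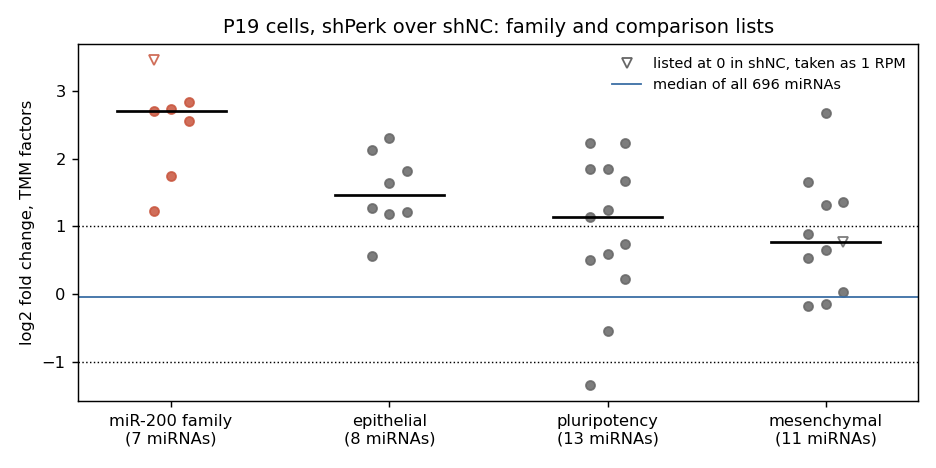
Log2 fold change of shPerk over shNC in P19 cells, TMM factors, for the 7 family members and the epithelial (8), pluripotency (13) and mesenchymal (11) lists. Each point is 1 miRNA, open triangles were listed at 0 in shNC and taken as 1 RPM, black bars are medians, and the blue line is the median of all 696 miRNAs at −0.04. The family's median lies at 2.71 and the lists' medians at 1.46, 1.13 and 0.77.

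In C2C12 cells the family was counted by few reads in every library. It summed to 46 reads in shNC and 42 in shPerk at day 0, and to 31 reads in shNC and 22 in shPerk at day 3. These are 4.06, 4.77, 2.58 and 2.33 CPM. Over the 41544586 reads of the 4 libraries it stood at 3.39 CPM (2.86 to 4.0). The tables were normalized separately from the P19 table, so the P19 sums of 331.6 and 1399.85 RPM stand beside these as a description.

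mmu-miR-200c-3p, a minor member in P19 cells, had the most reads in 3 of the 4 hairpin libraries, with 27 and 24 reads in shNC and shPerk at day 0 and 25 and 6 reads at day 3. mmu-miR-200b-3p had 7, 9, 3 and 7 reads in the same order, and mmu-miR-200a-3p had 10, 7, 1 and 9. mmu-miR-429-3p had 2, 2, 1 and 0 reads, and mmu-miR-141-3p had 1 read, in shNC at day 3. mmu-miR-200a-5p and mmu-miR-200b-5p had 0 reads in all 4 libraries, which allows up to 0.250 to 0.341 CPM with a floor of 3 reads. The 5p strands left out of the 7 members, mmu-miR-200c-5p, mmu-miR-141-5p and mmu-miR-429-5p, also had 0 reads there and had no row in the P19 table.

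**Figure D4:**
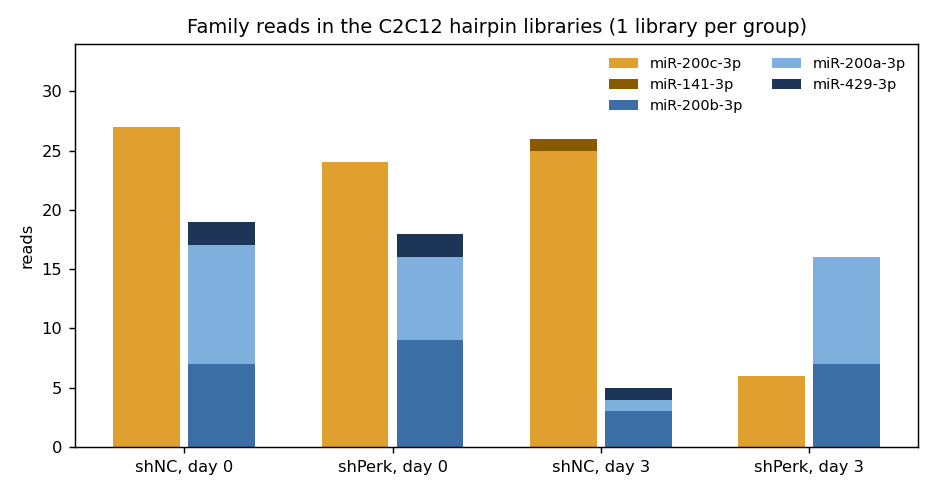
Reads of the family in the 4 C2C12 hairpin libraries, with the chromosome 6 strands (mmu-miR-200c-3p and mmu-miR-141-3p) in the left bar and the chromosome 4 3p strands in the right bar of each library. The left bars hold 27, 24, 26 and 6 reads and the right bars 19, 18, 5 and 16.

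Of the 7 members, 2 reached the minimum of 1 CPM in at least 1 of the compared libraries at day 0. mmu-miR-200c-3p reached it in both libraries. mmu-miR-200b-3p reached it in shPerk alone, where it was higher, at 1.02 CPM against 0.618 CPM in shNC. Neither lay beyond a log2 fold change of 1 in shPerk against shNC, where 36.5% of all miRNAs did. The values were 0.87 (−0.71 to 2.54) for mmu-miR-200b-3p and 0.35 (−0.50 to 1.20) for mmu-miR-200c-3p. At day 3 only mmu-miR-200c-3p passed the minimum. It was lower in shPerk by a log2 fold change of −1.43 (−3.02 to −0.13), and it passed the minimum through the shNC library alone, where it was higher. At that day 45.0% of all miRNAs lay beyond the limit, so a change of this size was common in the pair.

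From day 0 to day 3, mmu-miR-200c-3p differed by 0.16 (−0.68 to 1.0) in shNC cells, where 29.0% of all miRNAs lay beyond the limit. In shPerk cells it was lower at day 3 by −1.63 (−3.23 to −0.32), having reached 1 CPM at day 0 alone, and 33.9% of all miRNAs lay beyond the limit in that pair. mmu-miR-200b-3p, which also reached 1 CPM at day 0 alone, differed by −0.02 (−1.68 to 1.58) between the shPerk libraries. Both changes of mmu-miR-200c-3p rest on the 6 reads of the shPerk library at day 3. The muscle markers stood at 88480 CPM in shNC and 24312 CPM in shPerk at day 3, and their part in the change of mmu-miR-200c-3p was not tested.

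By summed reads, the clusters took opposite directions between the day 3 libraries. The sums include strands under the minimum of 1 CPM. No chromosome 4 strand reached it in either day 3 library, and mmu-miR-200c-3p reached it in shNC alone. Of the chromosome 4 strands, mmu-miR-200a-3p had 1 read in shNC and 9 in shPerk, mmu-miR-200b-3p 3 and 7, and mmu-miR-429-3p 1 and 0. The chromosome 4 strands had 5 reads in shNC and 16 in shPerk, and the chromosome 6 strands 26 and 6. The chromosome 6 share of the family was 83.9% (66.3 to 94.5%) in shNC and 27.3% (10.7 to 50.2%) in shPerk. The difference between the clusters' log2 fold changes was 3.79 (1.63 to 6.05). At day 0 the same difference was 0.09 (−1.25 to 1.44), with 19 and 18 reads for chromosome 4 and 27 and 24 for chromosome 6. The summed family did not differ beyond counting error at day 3, by 0.12 (−0.74 to 0.95) with TMM factors and by −0.15 with total scaling. The split by cluster in C2C12 cells was computed after the P19 values were seen.

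In the ATF4 pair mmu-miR-200c-3p stood at 3.02 RPM with the vector (about 32 reads) and 4.36 RPM with ATF4 (about 53 reads). The log2 fold change was 0.59 (−0.07 to 1.27), under the limit, which 23.5% of all miRNAs passed in this pair. Over the 6 C2C12 libraries mmu-miR-200c-3p stood at 2.08 to 4.36 (CPM or RPM) in 5 and at 0.636 CPM in shPerk at day 3.

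The lists gave other counts in C2C12 cells. None of the 13 pluripotency miRNAs reached the minimum in a hairpin pair or had a row in the ATF4 table. Of the 8 epithelial miRNAs 7 were compared in each pair. With TMM factors, 1 was higher and 3 lower in shPerk at day 0, and 2 were higher at day 3. From day 0 to day 3, 1 was higher and 2 lower in shNC cells, and 2 were higher in shPerk cells, while 0 passed the limit with ATF4. With total scaling the day 0 counts were the same, and 1 was higher and 1 lower at day 3. That scaling gave 1 higher and 4 lower between the shNC days, 0 past the limit between the shPerk days and 1 lower with ATF4. All 11 mesenchymal miRNAs were compared. With TMM factors, 2 were higher in shPerk at day 0, and 1 was higher and 1 lower at day 3. From day 0 to day 3, 3 were higher and 1 lower in shNC cells, and 1 was higher and 2 lower in shPerk cells. With ATF4, 1 was lower. With total scaling 1 was higher at day 0, and 1 was higher and 3 lower at day 3. That scaling gave 1 higher and 1 lower between the shNC days, 2 lower between the shPerk days and 1 lower with ATF4. Of all miRNAs compared, 36.5% lay beyond the limit with TMM factors, either way, between the day 0 libraries and 45.0% between the day 3 libraries. The share was 29.0% between the shNC days, 33.9% between the shPerk days and 23.5% with ATF4. Whether the lists differed from these shares was not tested.

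The 5 miRNAs whose profile was nearest to that of the summed family were sought over the 4 C2C12 hairpin libraries and the P19 pair, among 510 miRNAs with at least 10 RPM in a P19 library. The measure was the Euclidean distance between log2 profiles centred on their means. mmu-miR-367-3p, a member of the miR-302 cluster, was nearest with a distance of 1.02, at 0 reads in the C2C12 hairpin libraries and 129.23 and 269.02 RPM in P19 shNC and shPerk. mmu-miR-340-3p followed at 1.35, mmu-miR-488-3p at 1.53, mmu-miR-375-3p at 1.88 and mmu-miR-302b-5p at 1.90. In P19 shNC and shPerk, mmu-miR-340-3p stood at 133.02 and 185.78 RPM and mmu-miR-488-3p at 102.7 and 124.97 RPM. mmu-miR-302b-5p stood at 302.3 and 375.37 RPM there. The distance covers both cell lines, so a near profile does not show a like difference between the P19 libraries. mmu-miR-375-3p, which is also on the epithelial list, had 1 to 3 reads in the C2C12 hairpin libraries and 44.97 and 103.88 RPM in the P19 pair.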

How the data were processed

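The 8 small RNA libraries, 1 per sample, were made with linkers ligated to both ends of the RNA. Reads were annotated with bowtie by the authors. The version, the miRNA release and the treatment of reads that match several miRNAs are not given in the sources used here, and the submitters' notes name mm10. Raw counts per mature miRNA were deposited by the authors for the 4 C2C12 hairpin libraries. For the ATF4 and P19 pairs the authors deposited RPM, with values under 1 RPM listed at 0. Deposited log2 fold changes, p-values and q-values hold the study's own comparisons and were not used.

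Members and lists were chosen with earlier results of these data known. In the count pairs, miRNAs that reached 1 CPM in either library were compared with TMM factors and a prior count of 0.125 (edgeR 4.0.16, R 4.3.3). In the RPM pairs, TMM factors came from the RPM columns and listed zeros entered folds as 1 RPM. A log2 fold change beyond 1 was the limit. No p-values are printed, since each group is 1 library. Within 0.005 RPM, 94.1% of the low P19 shNC values and 95.0% of those of P19 shPerk were whole multiples of 1 step (8.07% and 4.55% by chance). The implied reads served for intervals, for shares of family reads and for ratios between strands, while the folds came from the RPM values. Their use was an addition made after the values were seen. Intervals are 95%, exact, from binomial counts. The fold computation of the count pairs was tested on a simulated pair with counting noise only. There 198 of 198 changed miRNAs were recovered and 10 of 365 unchanged ones passed the limit. Recovery close to the limit, and at the few reads of the family in C2C12 cells, was not tested separately. The fold computation of the RPM pairs was not simulated. Named were the 7 members, the other strands of their hairpins, the 2 miRNAs of each list with the highest mean in P19 cells, and the 5 nearest profiles. Alternatives were other scalings (DESeq2 1.42.0 among them), filters, prior counts, values for zeros, fold limits, and the limit joined to a two-sided exact binomial test on reads. Scripts ran on Python 3.11.15 (scipy 1.17.1, pandas 2.3.3, numpy 2.4.6), and plots on matplotlib 3.10.9. Sequences are from RefSeq (7 of 7 members matched) and positions from GENCODE, both on GRCm38.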

Additional observations from a re-analysis of the deposited data

Results flagged for a closer look

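mmu-miR-200c-3p went in opposite directions in shPerk against shNC in the 2 cell lines. It was higher in P19 cells, at 31.58 RPM in shNC and 48.46 RPM in shPerk. The log2 fold change there was 1.22 with TMM factors and 0.62, under the limit, with total scaling. In C2C12 cells at day 3 it was lower, at 25 and 6 reads, by −1.43 with TMM factors and −1.69 with total scaling. With 1 library per group the difference between the cell lines was not tested.

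The chromosome 4 strands had opposite signs from day 0 to day 3 in shNC and shPerk C2C12 cells with TMM factors, but not with total scaling. In shNC cells they had 19 reads at day 0 and 5 at day 3, a log2 fold change of −1.65 (−3.43 to −0.18), and in shPerk cells 18 and 16 reads, a log2 fold change of 0.18 (−0.89 to 1.23). With total scaling both were lower at day 3, by −2.01 in shNC cells and −0.27 in shPerk cells. The difference was not tested, and the value in shPerk cells lies within counting error of 0. In shNC cells no chromosome 4 strand reached the minimum of 1 CPM on either day.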

How the results depend on the processing

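With 1 library per group no replicate could be left out, and no paired analysis was possible because the labels carry no replicate numbers. In P19 cells the log2 fold change of the summed family was 2.07 with the miRNA total, 2.54 with edgeR's upper quartile and 2.5 without mmu-miR-200b-3p, against 2.68. The difference between clusters was at most 0.37 as a difference of medians, with the listed 0 of mmu-miR-141-3p taken as 1 RPM, against 1.39. Of the 7 members past the limit in P19 cells, 6 had a counting interval, and mmu-miR-141-3p, listed at 0 in shNC, had none. At the near end of the interval 4 were past the limit, an alternative added after seeing the data. The near ends of mmu-miR-200b-5p and mmu-miR-200c-3p were 0.94 and 0.95. In C2C12 cells the counts of members past the limit followed the filter. Without a filter they were 5 for shPerk against shNC at day 3, and 2 for day 3 against day 0 in shNC and 2 in shPerk cells. With a mean of at least 10 CPM no member was left, so the counts were 0 for shPerk against shNC at day 3 and 0 for day 3 against day 0 in shPerk cells. With a limit of 1.5-fold, 1 member passed at day 0 and 1 with ATF4. The share of all miRNAs was not computed for the other filters, the limit of 1.5-fold or the near end of the interval. These counts therefore cannot be set against a background. Of 39 values of single members under other scalings, 38 stayed on the same side of the limit, and 1 fell under it, mmu-miR-200c-3p in P19 cells at 0.62 with total scaling. Depth limits the C2C12 values, where the family had 22 to 46 reads in each of the 4 hairpin libraries.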
